A study of Mus musculus with 20 samples.

Results

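The apolipoprotein genes read here were Apoa1, Apoa2, Apoa4, Apoa5, Apob, Apoc1, Apoc2, Apoc3, Apoe and Apom, 10 of the 27962 gene names on the array, picked by symbol. They were read by 16 of the 41174 non-control probes, and each gene is described by its brightest probe, with the other probes of Apoa5, Apob and Apoc3 given beside it. The samples were liver and white adipose tissue (WAT) of male C57BL/6 mice aged 7 months, wildtype (WT) or lacking the hyaluronan receptor CD44 (CD44KO), with 5 arrays for each genotype and tissue. Feeding lasted 21 weeks, on feed with 35% fat for every mouse, so that the groups are written WT(HFD) and CD44KO(HFD), where HFD is high fat diet, and both genotypes carry the effect of the diet. CD44 was missing from all cells of the CD44KO mice, a line backcrossed to C57BL/6J per the methods of the study, and a whole tissue was read, in which fewer cells of a type and less RNA per cell cannot be told apart. The fat depot of the WAT arrays is not named by the labels.

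Apolipoproteins are the protein part of lipoproteins, the particles that carry triglyceride and cholesterol through blood. Hepatocytes secrete most of them: Apob is the backbone of very low density lipoprotein (VLDL), Apoa1 and Apoa2 build high density lipoprotein (HDL), the C proteins and Apoa5 speed or slow the hydrolysis of triglyceride by lipoprotein lipase, and Apoe binds the receptors that clear remnants. Apoa4 is made by enterocytes and, in mice, by hepatocytes, and is known to rise in fatty liver. The genes Apoa1, Apoc3, Apoa4 and Apoa5 lie side by side on chromosome 9, and Apoc2, Apoc4, Apoc1 and Apoe on chromosome 7.

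Values are log2 signals relative to the 75th percentile of the array, which is set to 0. A probe was tested when 3 or more of the 5 arrays in one of the groups read it well above background. In liver between 57.4% and 61.9% of the spots of an array were well above background, and in WAT between 63.2% and 69.5%, apart from WT(HFD) WAT replicate 1, with 89.5%. That array correlated with another of its group at only 0.87 across probes, and the chief results of WAT are therefore also given without it. Cd44 itself fell by 4.21 on the log2 scale in CD44KO(HFD) liver (adjusted p = 6.65e-06, limma) and by 4.57 in CD44KO(HFD) WAT (adjusted p = 7.64e-06, limma). Of the defining markers of the tissues, the hepatocyte gene Alb had a mean of 10.25 in WT(HFD) liver and the adipocyte gene Adipoq a mean of 6.57 in WT(HFD) WAT.

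The probes of the chromosome 9 cluster are shown because the main comparison sets Apoa4 against these neighbours. Each is 60 bases long, written 5′ to 3′, and the capitals mark the 50 bases that both Apoc3 probes share.
Apoa1: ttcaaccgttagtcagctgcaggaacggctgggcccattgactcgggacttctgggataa
Apoa4: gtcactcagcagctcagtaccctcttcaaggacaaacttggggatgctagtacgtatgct
Apoa5 probe 1: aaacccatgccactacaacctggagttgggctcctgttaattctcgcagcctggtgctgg
Apoa5 probe 2: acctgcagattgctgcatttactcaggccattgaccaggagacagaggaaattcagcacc
Apoc3 probe 1: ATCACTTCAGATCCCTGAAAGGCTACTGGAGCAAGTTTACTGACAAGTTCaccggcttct
Apoc3 probe 2: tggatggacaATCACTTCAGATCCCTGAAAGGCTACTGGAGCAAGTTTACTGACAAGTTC
unnamed probe after Apoa4: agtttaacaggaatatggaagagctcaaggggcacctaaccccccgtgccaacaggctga
By the positions in the files, whose header names build mm7, the Apoa1 probe (NM_009692) lay at chr9:46187961-46188020 on the plus strand, the Apoc3 probe (NM_023114) at chr9:46191393-46191452 on the minus strand, the Apoa4 probe (NM_007468) at chr9:46199701-46200444 on the plus strand and the Apoa5 probe (NM_080434) at chr9:46229126-46229185 on the plus strand. The position of the Apoa4 probe spans 744 bases for 60 bases of probe. The unnamed probe, which has neither a gene symbol nor an accession in the files, began 347 bases after the end of the Apoa4 probe, at chr9:46200791-46200843 on the plus strand. Whether these positions are coding or untranslated was not annotated in the tables used.

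The 250 bases before the annotated start of 3 genes of this cluster are shown so that the regulatory sequence of the member that fell can be read beside that of neighbours. They are from RefSeq on build GRCm38.p6, which held an entry for 8 of the 10 genes. Capitals mark matches, searched on both strands, to any of 4 short motifs. One is the TATA box, spelled TATAAA. Another is the core site of many nuclear receptors, which is AGGTCA. The third motif searched was a site of the hepatocyte factor HNF4, written CAAAGTCCA. The last was the core of the site that factors of the CREB family bind, which reads TGACG.
Apoa1 chr9:46228380-46228629, plus strand: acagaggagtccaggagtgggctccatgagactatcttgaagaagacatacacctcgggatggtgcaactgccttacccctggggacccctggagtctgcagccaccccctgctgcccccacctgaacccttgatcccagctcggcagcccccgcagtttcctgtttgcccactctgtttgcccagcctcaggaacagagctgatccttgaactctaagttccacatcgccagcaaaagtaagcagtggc
Apoa4 chr9:46240594-46240843, plus strand: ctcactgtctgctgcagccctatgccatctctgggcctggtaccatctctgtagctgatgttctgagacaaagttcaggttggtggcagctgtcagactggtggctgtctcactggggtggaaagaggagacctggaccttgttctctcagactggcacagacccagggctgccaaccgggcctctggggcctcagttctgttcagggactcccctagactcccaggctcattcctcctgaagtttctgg
Apoa5 chr9:46268358-46268607, plus strand: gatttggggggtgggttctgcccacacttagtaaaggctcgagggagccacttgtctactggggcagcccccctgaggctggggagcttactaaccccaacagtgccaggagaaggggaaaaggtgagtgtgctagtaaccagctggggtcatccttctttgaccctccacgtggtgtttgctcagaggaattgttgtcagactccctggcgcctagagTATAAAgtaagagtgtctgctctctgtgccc
Neither the Apoa1 nor the Apoa4 window held any of these letters, and that of Apoa5 held TATAAA with its 5′ end 31 bases before the start. Among the 32851 RefSeq windows of this length, 12.4% held the TATA box, 14% the nuclear receptor core, 0.384% the HNF4 site and 17.8% the CREB core. A missing match says only that these letters are not in the window.

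In CD44KO(HFD) liver 1 of the 10 genes passed the threshold, Apoa4, which was lower, and 0 were higher. Over all 24689 probes tested 13.6% passed, 5.75% lower and 7.85% higher, and with a single call nothing can be read from the share of the 10 genes. At an unadjusted p under 0.05 there were 3 genes, Apoa4, Apoa1 and Apoc2, and 32.2% of all probes tested. None of the 10 genes separated the genotypes without overlap, against 11.7% of all probes, 4.22% lower and 7.49% higher. The median log2 fold change was 0.11 over the 10 genes and 0.08 over all probes tested. Without Apoa4 the other 9 genes lay between -0.24 and 0.30, with a median of 0.12. Apoa4 stood apart from the others by the size of its change, as the plot of genotype effects shows.

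**Figure D1:**
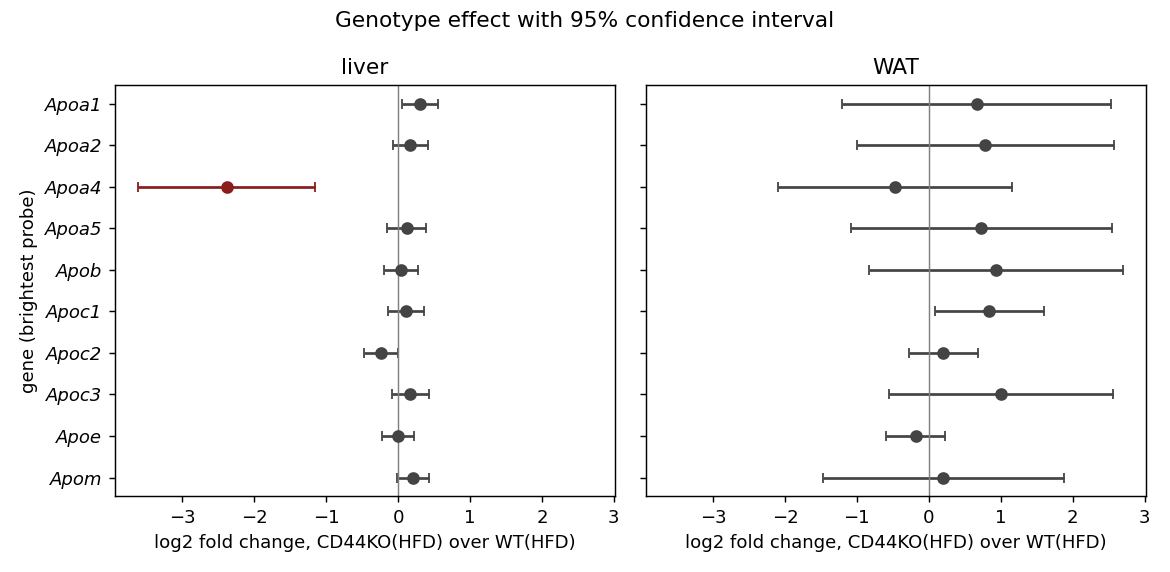
Log2 fold change of CD44KO(HFD) over WT(HFD) for the brightest probe of each gene in liver (left) and WAT (right), n = 5 arrays per genotype. Points are limma estimates, bars their 95% confidence intervals and red marks an adjusted p under 0.05: Apoa4 in liver, at -2.38, is the only red point, and the intervals in WAT are wide for most genes.

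Apoa4, a lipid-binding protein of chylomicrons, VLDL and HDL, was 7.73, 7.59, 7.20, 6.51 and 7.22 in WT(HFD) liver replicates 1 to 5 and 4.27, 3.54, 6.78, 4.11 and 5.65 in CD44KO(HFD) liver replicates 1 to 5. Each CD44KO(HFD) array read lower than the mean of WT(HFD), yet the genotypes overlapped, since CD44KO(HFD) replicate 3 was above WT(HFD) replicate 4. The means were 7.25 ± 0.48 (SD, n = 5) and 4.87 ± 1.32 (SD, n = 5), a 5.21-fold decrease (log2 fold change -2.38, standard error 0.56, 95% confidence interval -3.62 to -1.15). The adjusted p was 0.0254 (limma), and the exact two-sided permutation test gave p = 0.016, where 0.0079 is the smallest that 5 against 5 arrays allow. The spread in CD44KO(HFD) liver was the larger, as the plot by array shows.

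The call depended on single arrays and on the model. The adjusted p was 0.0563 with no filter on dim probes, 0.0691 with all 20 arrays in 1 fit and 0.0511 with the replicate number as a block (limma), with the same log2 fold change. When single arrays were left out, the log2 fold change stayed between -2.86 and -2.05, and the adjusted p ranged from 0.00431 without CD44KO(HFD) replicate 3 to 0.0636 without WT(HFD) replicate 2 (limma). It passed in 4 of these 10 fits and missed the threshold without WT(HFD) replicate 1, 2 or 5 or CD44KO(HFD) replicate 1, 2 or 4. On the slide with 2 arrays of each genotype that included CD44KO(HFD) replicate 3 the difference was -1.27, against -3.22 on the other slide with 2 of each and -2.93 on the slide with 1 of each.

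**Figure D2:**
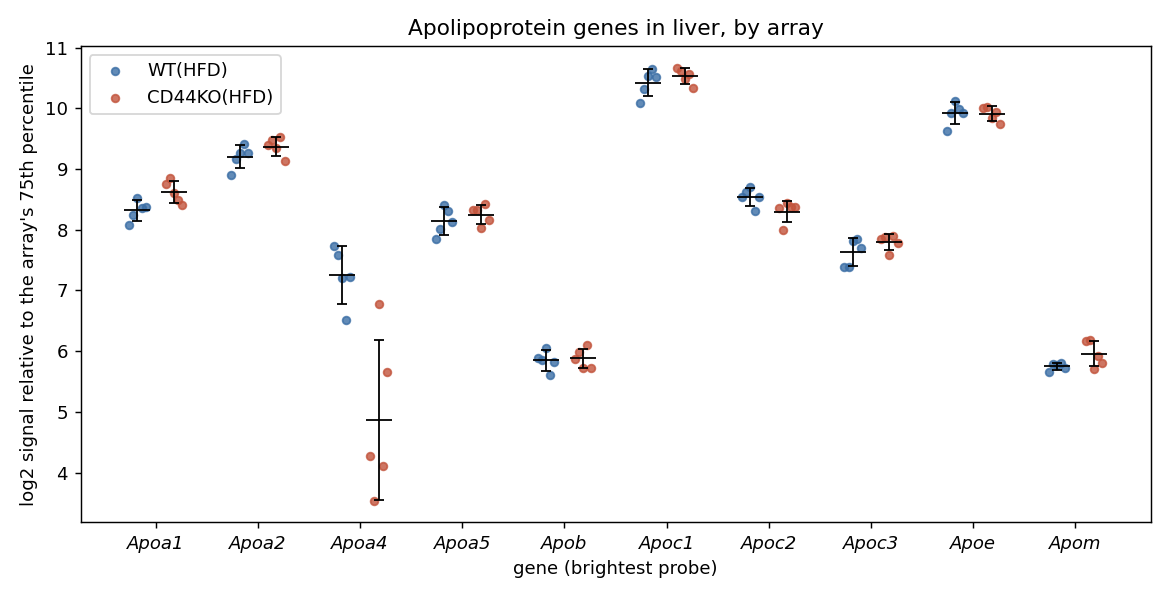
Log2 signal of each gene in liver, relative to the 75th percentile of the array, for 5 WT(HFD) (blue) and 5 CD44KO(HFD) (red) arrays. Dots are arrays and black bars mean ± SD; the CD44KO(HFD) values of Apoa4 run from 3.54 to 6.78, and the other genes differ between genotypes by at most 0.30.

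The unnamed probe just past Apoa4 gave nearly the same pattern. It read 8.23, 8.02, 7.96, 7.05 and 7.76 in WT(HFD) liver and 4.95, 4.17, 7.36, 4.73 and 6.16 in CD44KO(HFD) liver, again with only CD44KO(HFD) replicate 3 inside the WT(HFD) range. The genotypes differed by -2.33 on the log2 scale (standard error 0.54, adjusted p = 0.0246, limma; exact two-sided permutation p = 0.016). Over the 10 liver arrays its Pearson correlation with the Apoa4 probe was 0.998, as a description. It was singled out after its values were seen, so its test does not add independent support, and which transcript it reads is not stated in the files.

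Of the other probes at -39 to 64.9 kb from the Apoa4 probe, none of those tested passed the threshold, and a dim second Bud13 probe and 4931429L15Rik were not tested. Apoa1, at -11.7 kb, had a log2 fold change of 0.30 and Apoc3, at -8.3 kb, 0.17. An unnamed transcript on the other strand, just past the Apoa1 probe, had -0.42 (adjusted p = 0.196, limma). On the far side, Apoa5 at 29.4 kb had 0.12, Zfp259 (now Zpr1) at 38.4 kb had 0.21 and Bud13 at 57 kb had 0.24. The 4 probes of BC033915 (Sik3) on the near side lay between -0.10 and -0.02. The decrease was thus read by the Apoa4 probe and the unnamed one next to it.

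**Figure D3:**
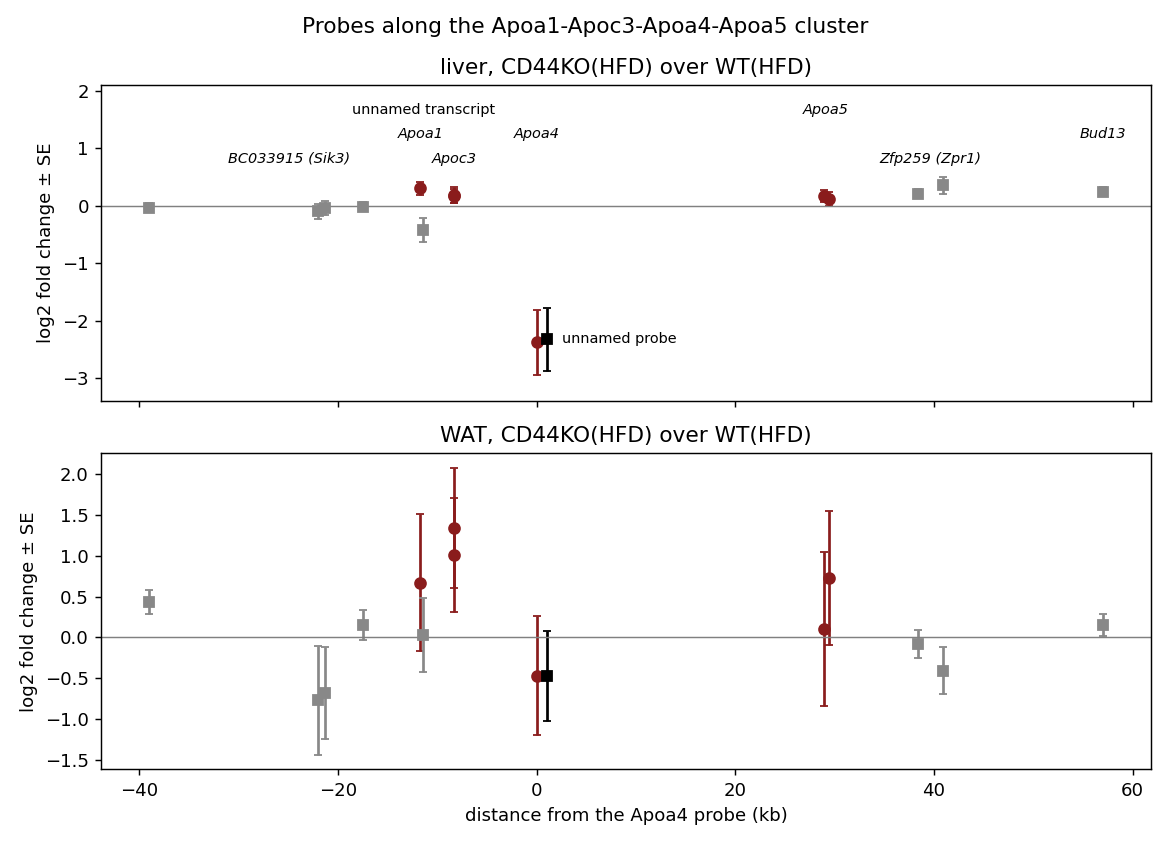
Log2 fold change of CD44KO(HFD) over WT(HFD) ± standard error for tested probes on chromosome 9, by distance in kb from the Apoa4 probe, in liver (top) and WAT (bottom, other scale). Red dots are apolipoprotein probes, the black square the unnamed probe after Apoa4 and grey squares other probes; in liver Apoa4 and the unnamed probe lie at -2.38 and -2.33 and every other probe shown between -0.42 and 0.35.

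Set against its neighbours on the same array, where the scaling of the array cancels, Apoa4 fell in liver. The difference of Apoa4 minus the mean of Apoa1, Apoc3 and Apoa5 was -0.03, -0.29, -1.05, -1.67 and -0.84 on the WT(HFD) arrays and -4.04, -4.81, -1.30, -4.16 and -2.47 on the CD44KO(HFD) arrays. Here too CD44KO(HFD) replicate 3 was inside the WT(HFD) range and the other 4 were below it. The means differed by -2.58 (standard error 0.70), a 5.97-fold decrease. Against single neighbours the difference between genotypes was -2.68 for Apoa1, -2.55 for Apoc3 and -2.50 for Apoa5. Each of these 4 comparisons had p = 0.016 in the exact two-sided permutation test and 0.032 after Benjamini-Hochberg adjustment over the 8 comparisons of both tissues. With any array left out the difference to the mean stayed between -3.09 and -2.21, and p was at most 0.032 (exact permutation test, two-sided) in all 10. Within slides it was -3.51, -1.44 and -2.99.

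**Figure D4:**
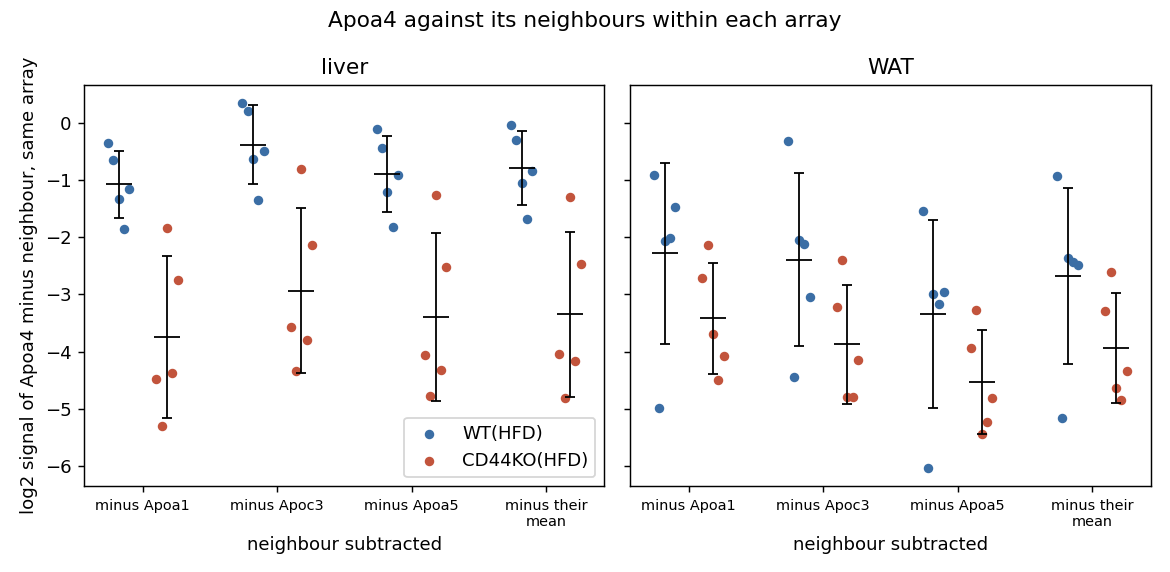
Log2 signal of Apoa4 minus that of Apoa1, Apoc3, Apoa5 or their mean on the same array, in liver (left) and WAT (right). Dots are arrays, blue WT(HFD) and red CD44KO(HFD), with mean ± SD in black; in liver 4 of 5 CD44KO(HFD) arrays lie below all WT(HFD) arrays for the mean of the neighbours, and in WAT the genotypes overlap.

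Of the HDL proteins, Apoa1, the main one and the activator of Lcat, was 8.08, 8.24, 8.52, 8.36 and 8.37 in WT(HFD) liver and 8.75, 8.85, 8.60, 8.49 and 8.40 in CD44KO(HFD) liver. Of the 5 CD44KO(HFD) arrays 3 read above every WT(HFD) array. The log2 fold change of 0.30 (95% confidence interval 0.06 to 0.55) missed the threshold (adjusted p = 0.0919, limma; exact two-sided permutation p = 0.032). Apoa2 (NM_013474), another structural protein of HDL, lay between 8.90 and 9.41 in WT(HFD) liver and between 9.14 and 9.52 in CD44KO(HFD) liver, with 0.17 (adjusted p = 0.314, limma). Apom (NM_018816), which carries sphingosine 1-phosphate on HDL, was between 5.65 and 5.80 in WT(HFD) liver and 6.16, 6.18, 5.71, 5.92 and 5.81 in CD44KO(HFD) liver. The difference was 0.21 on the log2 scale (adjusted p = 0.188, limma), with 4 of 5 CD44KO(HFD) arrays above the WT(HFD) mean.

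Apob, the structural protein of VLDL, was read by 5 probes on chromosome 12 that did not move alike. The brightest (AK147540, chr12:7972307-7972366, plus strand) lay between 5.60 and 6.06 in WT(HFD) liver and between 5.72 and 6.10 in CD44KO(HFD) liver, with a log2 fold change of 0.04 (95% confidence interval -0.20 to 0.27, adjusted p = 0.851, limma). The adjacent probe, which ends where this one begins, had -0.05. The 3 dimmer probes, all at lower coordinates, had -0.46, -0.26 and -0.39, with adjusted p-values of 0.109, 0.179 and 0.0868 (limma). For the dimmest, the CD44KO(HFD) arrays all 5 read under the mean of WT(HFD) (exact two-sided permutation p = 0.016). None of the 5 passed the threshold, and the reason for their difference was not tested.

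The proteins that act on lipoprotein lipase did not pass the threshold in liver. Apoc2 (NM_009695), the cofactor of the lipase, was 8.54, 8.62, 8.70, 8.31 and 8.54 in WT(HFD) liver and 8.35, 7.99, 8.44, 8.37 and 8.37 in CD44KO(HFD) liver, each of the 5 under the mean of WT(HFD). This gave a log2 fold change of -0.24 (95% confidence interval -0.47 to 0.00, adjusted p = 0.15, limma; exact two-sided permutation p = 0.04). Apoc3, an inhibitor of the lipase and of remnant uptake, lay between 7.38 and 7.85 in WT(HFD) liver and between 7.58 and 7.90 in CD44KO(HFD) liver, with 0.17 (adjusted p = 0.345, limma), and its overlapping second probe had 0.19. Apoa5, which helps the lipase act at the vessel wall, lay between 7.84 and 8.40 in WT(HFD) liver and between 8.03 and 8.43 in CD44KO(HFD) liver, with 0.12 (adjusted p = 0.548, limma), and its other probe had 0.17. Apoc1 (NM_007469), which slows receptor uptake of remnants, lay between 10.09 and 10.64 in WT(HFD) liver and between 10.34 and 10.67 in CD44KO(HFD) liver, with 0.11 (adjusted p = 0.525, limma). For Apoe (NM_009696), the ligand for remnant uptake, the range was 9.62 to 10.12 in WT(HFD) liver and 9.74 to 10.02 in CD44KO(HFD) liver. The estimate of its log2 fold change was 0.00, with a 95% confidence interval of -0.23 to 0.22. In their cluster on chromosome 7, Apoc4, between Apoc2 and Apoc1, had 0.31 (adjusted p = 0.124, limma). Next to Apoe, at 17.4 kb, a probe of Tomm40, which encodes an import channel of mitochondria, was higher by 0.43 (adjusted p = 0.0182, limma). A dimmer Tomm40 probe at 17.9 kb, on the other strand, had 0.09 (adjusted p = 0.76, limma).

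The symbols closest to Apoa4 over the 10 liver arrays were Col1a1 and Col3a1, chains of fibrillar collagens, Plekha1, Anxa5, an annexin, and Ifi27l2a, an interferon-induced gene, each with r = 0.99 among 15131 genes well above background on all 10 arrays. By deviations from the genotype means the closest were Ifi27l2a, Anxa5, Hunk, Col1a1 and Plekha1, with r from 0.98 to 0.99. These are descriptions over 10 arrays that share the genotype contrast and the slides. Col1a1 fell by 2.38 on the log2 scale (adjusted p = 0.0255, limma), Ifi27l2a by 2.25 (adjusted p = 0.0125, limma) and Anxa5 by 1.58 (adjusted p = 0.0142, limma). No other apolipoprotein of the 10 followed Apoa4 as closely: the highest r was 0.81, for Apoc2, and the lowest -0.89, for Apom.

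Markers of several cell types differed between the genotypes in liver. The counts of lists in liver are read beside the 5.75% of all probes that were lower and the 7.85% that were higher. Of the 10 markers of stellate cells and fibroblasts, 5 were lower and 0 higher in CD44KO(HFD) liver, or 50% called. Their mean signal was between 1.87 and 2.72 on the WT(HFD) arrays and between 1.12 and 2.04 on the CD44KO(HFD) arrays, where the highest was replicate 3, the array with the highest Apoa4. Of the 11 macrophage markers 4 were lower and 0 higher (36.4%), with means between 1.16 and 2.36 against 0.06 and 1.32, again highest in CD44KO(HFD) replicate 3. Gpnmb, 1 of these 4, was well above background on 5 WT(HFD) arrays and 1 CD44KO(HFD) array, so that it was tested through the group where it is high. Of 7 markers of Kupffer cells, the resident macrophages of liver, 2 were higher and 0 lower (28.6%). The part of these cells in the Apoa4 difference was not tested. Hepatocyte markers, like those of Kupffer cells, went the other way from Apoa4, with 4 of 14 higher and 0 lower (28.6%). Their means lay between 6.76 and 7.41 in WT(HFD) liver and between 7.23 and 7.70 in CD44KO(HFD) liver. Of the enterocyte markers, Lct, Cdx1 and Slc15a1 were not well above background on any liver array, while Fabp2, Anpep, Lgals4 and Alpi were on all 5 of each genotype. Vil1 was on 4 WT(HFD) and 2 CD44KO(HFD) arrays, Slc5a1 on 3 and 1 and Cdx2 on 1 and 0. Of the 7 bright enough to test, Krt20 was lower (adjusted p = 0.0327, limma), and the other 6, Fabp2 and Vil1 among them, did not pass. Krt20 was well above background on 5 WT(HFD) arrays but on 1 of 5 CD44KO(HFD) arrays. It was thus tested through the group where it is high, and the size of its change is not read. Of 7 adipocyte markers tested in liver 2 were lower and 1 higher (42.9%). Aqp7, 1 of the 2 lower, was likewise tested through the high group, with 4 WT(HFD) arrays and 1 CD44KO(HFD) array well above background. Of 5 mesothelial markers 2 were lower, the keratins Krt8 and Krt18, which hepatocytes are known to express too, while Msln had 0.62 and Upk3b 0.76, neither past the threshold. Of 3 markers of epididymis, 4 of exocrine pancreas and 4 of erythroid cells none passed.

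Among other apolipoproteins and related lipoprotein proteins, 2 of 15 tested passed in liver, 13.3% beside 13.6% of all probes. Apol9b fell by 1.12 on the log2 scale (adjusted p = 0.0103, limma), and Apoh, a phospholipid-binding plasma protein, rose by 0.41 (adjusted p = 0.0363, limma). Of 21 genes of lipoprotein assembly and secretion, 2 were higher and 0 lower, 9.52% beside 7.85% of all probes higher: Cideb, which helps load VLDL with lipid, with 0.34 (adjusted p = 0.0416, limma), and Aadac, a lipase of the endoplasmic reticulum, with 0.37 (adjusted p = 0.0259, limma). Mttp, the transfer protein that loads lipid onto Apob, had 0.14 (adjusted p = 0.171, limma). The medians of these lists were 0.11 and 0.16, beside 0.08 for all probes.

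Of 11 genes of plasma lipolysis and remodelling 1 passed (9.09%), Lcat, the enzyme that esterifies cholesterol on HDL, which was higher by 0.54 (adjusted p = 0.047, limma). The lipase Lpl read 1.65 ± 0.72 (mean ± SD over 5 arrays) in WT(HFD) liver against 0.56 ± 0.53 in CD44KO(HFD) liver (log2 fold change -1.09, adjusted p = 0.0682, limma). Of 13 receptor genes 2 passed, 15.4% beside 13.6% of all probes. Vldlr was higher by 0.67 (adjusted p = 0.0476, limma). Sorl1, a sorting receptor, read well above background on 3 WT(HFD) arrays and on no CD44KO(HFD) array of liver. It was thus tested through the group where it is high. In CD44KO(HFD) liver it was at least 1.23-fold lower, a bound from the dimmest signals above background. Its adjusted p of 0.0349 (limma) is for the signals as read, not for this bound.

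Of 11 genes of sterol efflux 3 were higher and 0 lower, 27.3% beside 7.85% of all probes higher. Abcg5 and Abcg8, which together pump sterols into bile, rose by 0.99 (adjusted p = 0.0045, limma) and 1.07 (adjusted p = 0.00815, limma), and Abca1, which loads cholesterol onto Apoa1, by 0.37 (adjusted p = 0.0309, limma). Of 13 lipid droplet genes, 3 were lower and 1 higher, 30.8% beside 13.6% of all probes: Cidec, a fusion protein of droplets, had -2.12 (adjusted p = 0.0486, limma), Hilpda, an inhibitor of droplet lipolysis, -0.70 (adjusted p = 0.0146, limma), Plin5 -0.34 (adjusted p = 0.0457, limma) and Cideb, counted above too, 0.34.

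Of 27 regulators of these genes 4 were higher and 0 lower, or 14.8%, beside 7.85% of all probes higher and 13.6% called in either direction. They were Srebf1, a factor of lipid synthesis, with 0.55 (adjusted p = 0.0448, limma), the bile acid receptor Nr1h4 with 0.46 (adjusted p = 0.0219, limma), Nr2f2 with 0.42 (adjusted p = 0.0146, limma) and Cebpa with 0.28 (adjusted p = 0.0384, limma). Creb3l3, a liver factor known to drive Apoa4, was 5.89, 6.12, 5.96, 6.37 and 6.12 in WT(HFD) liver and 6.40, 6.45, 6.31, 6.68 and 6.30 in CD44KO(HFD) liver. The difference was 0.34 on the log2 scale (adjusted p = 0.0659, limma), and the part of Creb3l3 in the Apoa4 difference was not tested. Hnf4a, a master factor of hepatocytes, had 0.27 (adjusted p = 0.0772, limma), Ppara -0.04 (adjusted p = 0.888, limma) and Nr1d1 0.06 (adjusted p = 0.827, limma). Over these lists 17 genes passed in liver, a count that went down to 5 without WT(HFD) replicate 2, CD44KO(HFD) replicate 1 or CD44KO(HFD) replicate 4 and up to 31 without CD44KO(HFD) replicate 3, and that also moved by over 1.5 times without WT(HFD) replicates 1 (6), 3 (9) or 5 (9) or CD44KO(HFD) replicates 2 (6) or 5 (6).

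In WAT 0 of the 10 genes passed (limma), beside 0.0398% of the 27654 probes tested, 0.0289% lower and 0.0108% higher, and 1, Apoc1, had an unadjusted p under 0.05, beside 14.9% of all probes. None separated the genotypes without overlap, against 6.14% of all probes, 2.07% lower and 4.07% higher. Of the 10 log2 fold changes 8 were above and 2 below 0, with a median of 0.70, beside -0.06 for all probes. Without WT(HFD) replicate 1 again 0 passed, and the 10 values lay between -0.30 and 1.31. Apoc1 was 3.48, 4.66, 3.61, 4.17 and 4.91 in WT(HFD) WAT and 5.36, 5.74, 4.80, 4.59 and 4.55 in CD44KO(HFD) WAT, where each of the 5 exceeded the mean of WT(HFD). The difference was 0.84 on the log2 scale (standard error 0.34, adjusted p = 0.3, limma; exact two-sided permutation p = 0.071). Apoe, which adipocytes and macrophages also make, was 6.94, 7.61, 7.53, 7.53 and 7.38 in WT(HFD) WAT and 6.99, 7.24, 7.65, 7.05 and 7.14 in CD44KO(HFD) WAT. The groups overlapped and differed by -0.18 (adjusted p = 0.631, limma), a value that was -0.41 with array weights (adjusted p = 0.0171, limma) and 0.04 with slide as a fixed block. With array weights 2814 of the 27654 probes tested passed, against 11 without them, so that nothing is read from that call of Apoe. Apoc2 lay between 0.35 and 1.51 on the 10 arrays, with 0.20 (adjusted p = 0.646, limma).

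The genes made chiefly by hepatocytes were spread widely among the WAT arrays of 1 genotype. Apoa1 was -1.08, -0.08, -4.10, -1.18 and -4.31 in WT(HFD) WAT and -1.92, -2.73, -0.78, -0.93 and -1.08 in CD44KO(HFD) WAT. The lowest WT(HFD) arrays for Apoa1, Apoa2, Apoa5, Apob, Apoc3 and Apom were replicates 3 and 5, and the lowest CD44KO(HFD) array was replicate 2, for each of the 6. Apoa5 ranged from -3.18 to 0.98 and Apoc3 from -4.12 to 0.32 over the 10 arrays. Apob was dim, and cleared background on 3 WT(HFD) arrays and on all 5 of CD44KO(HFD). The log2 fold changes were 0.67 for Apoa1, 0.78 for Apoa2, 0.73 for Apoa5, 0.94 for Apob, 1.01 for Apoc3 and 0.20 for Apom, with adjusted p-values from 0.501 to 0.897 (limma). The second probe of Apoa5 had only 0.10, that of Apoc3 1.34 and that of Apob 1.02, none past the threshold. The other Apob probes were too dim to test. Their means were -5.60, -6.89 and -7.95 in WT(HFD) WAT and lower, -7.19, -8.27 and -8.23, in CD44KO(HFD) WAT.

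Hepatocyte markers took the same course over the WAT arrays. Alb was 2.90, 4.66, 0.61, 3.95 and 1.12 in WT(HFD) WAT and 2.82, 2.60, 5.17, 4.23 and 3.95 in CD44KO(HFD) WAT. The mean of 14 hepatocyte markers was -0.41, 0.27, -3.19, -0.52 and -2.79 in WT(HFD) WAT and -1.54, -2.02, 0.76, -0.15 and -0.30 in CD44KO(HFD) WAT, with 0 of 14 past the threshold. Over the 10 WAT arrays the marker mean had Pearson r = 0.96 with Apoa1 (permutation test, two-sided, p = 8e-05, adjusted 0.0002), 0.97 with Apoa5, 0.95 with Apob and with Apoc3, 0.92 with Apoa2 and 0.89 with Apom, and Spearman's rho for these 6 was between 0.84 and 0.98. The adjusted permutation p of r was at most 0.0009 and that of rho at most 0.0059 for each of the 6, out of 10 genes related. Without WT(HFD) replicates 3 and 5, the arrays farthest from the median of the marker mean, r was 0.92, 0.92, 0.89, 0.90, 0.76 and 0.76 in the same order.

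For the other 4 genes the relation to the hepatocyte markers in WAT did not pass, and whether it differed from that of the 6 was not tested. The r with the marker mean was -0.05 for Apoc1 (permutation p = 0.89), 0.05 for Apoe (permutation p = 0.89), 0.48 for Apoc2 (permutation p = 0.17) and 0.44 for Apoa4 (permutation p = 0.2), and rho was -0.07, 0.18, 0.36 and 0.37. For Apoa4 too, the lowest WT(HFD) arrays were replicates 3 and 5. The slides held too few WAT arrays, 2 to 4 each, for a value of r within a slide. With the marker mean of each array as a covariate, the median log2 fold change of the 10 genes between genotypes was 0.08, beside 0.70 without it, and 0 passed. Apoa1 then had -0.04, Apoa5 0.04, Apoc3 0.42 and Apoc1 0.93. Apoa4 had -0.81 with the covariate (adjusted p = 0.555, limma), beside -0.47 without it. Where the hepatocyte transcripts in these WAT samples came from was not tested.

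**Figure D5:**
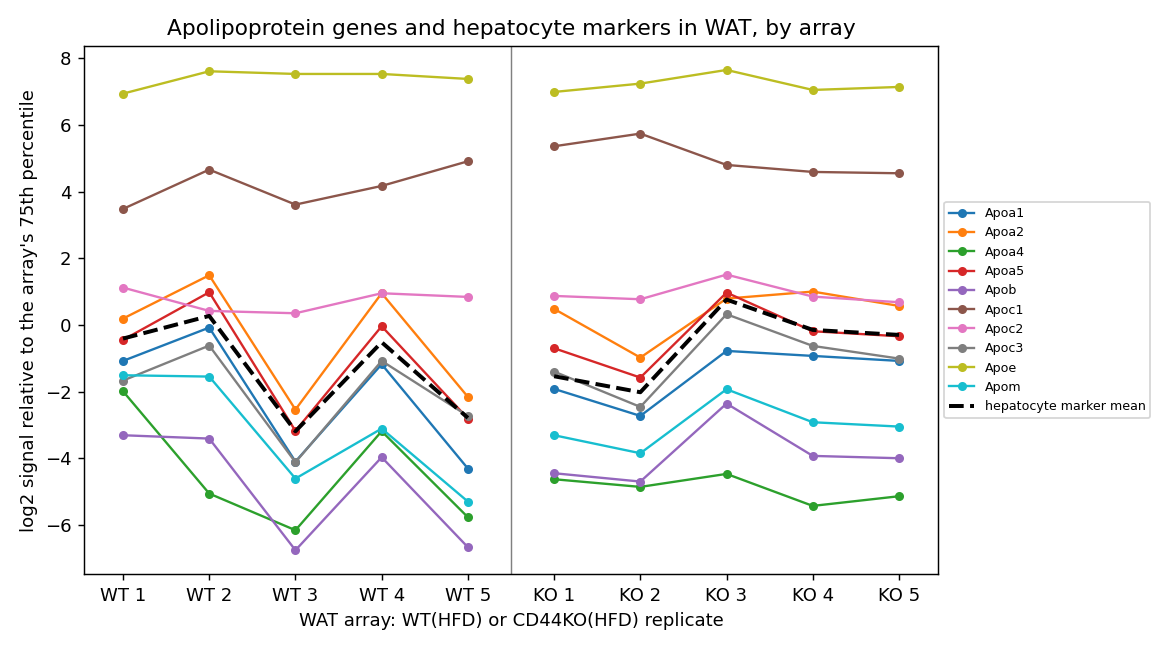
Log2 signal of the 10 genes on each WAT array, relative to the 75th percentile of the array, for WT(HFD) replicates 1 to 5 (left) and CD44KO(HFD) (KO) replicates 1 to 5 (right). Coloured lines are genes and the dashed black line is the mean of 14 hepatocyte markers. In WT(HFD) replicates 3 and 5, Apoa1, Apoa2, Apoa5, Apob, Apoc3 and Apom dip with it, and Apoa4 is lowest there too. Among the WT(HFD) arrays Apoe stays between 6.94 and 7.61, and Apoc1 is lowest in replicate 1 and highest in replicate 5. Lines join arrays for reading across only, since replicates have no order.

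Apoa4 in WAT was -1.99, -5.06, -6.16, -3.19 and -5.77 in WT(HFD) and -4.63, -4.86, -4.47, -5.43 and -5.14 in CD44KO(HFD), with all 10 arrays well above background. The difference was -0.47 on the log2 scale (standard error 0.73, adjusted p = 0.753, limma), and without WT(HFD) replicate 1, the array that stood apart, it turned to 0.14. On the slide with 2 arrays of each genotype, WT(HFD) replicate 1 among them, it was -2.41. The slide with 3 WT(HFD) arrays and 1 CD44KO(HFD) array gave 1.20, while the last slide held CD44KO(HFD) arrays only. On WT(HFD) replicate 1 the means of the enterocyte, epididymis and exocrine pancreas markers were -1.24, -2.19 and -2.81. The medians of the WT(HFD) WAT arrays were -4.31, -7.02 and -6.25. What set that array apart was not tested. Apoa4 minus the mean of its neighbours was -0.92, -5.16, -2.36, -2.43 and -2.49 in WT(HFD) WAT and -3.29, -2.60, -4.64, -4.85 and -4.34 in CD44KO(HFD) WAT. The difference of -1.27 did not pass (exact two-sided permutation p = 0.16, adjusted 0.21). Without WT(HFD) replicate 1 it was -0.83, the weak end of the range with 1 array left out. Without WT(HFD) replicate 2, the lowest WT(HFD) array, it was -1.89 (exact two-sided permutation p = 0.016). Of the 10 fits with 1 array left out, only that 1 had p under 0.05.

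Whether the genotype effect in liver differed from that in WAT was tested by an interaction over all 20 arrays. None of the 10 genes passed, beside 1.15% of the 28989 probes tested. For Apoa4 the liver effect minus the WAT effect was -1.91 (standard error 0.97, adjusted p = 0.352, limma), and without WT(HFD) WAT replicate 1 it was -2.52 (adjusted p = 0.125, limma). A difference of the Apoa4 effect between the tissues was therefore not shown at this number of arrays. For the other 9 genes the differences lay between -0.90 and 0.18.

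In WT(HFD) mice all 10 genes were higher in liver than in WAT, beside 68.3% of the 28365 probes tested that differed, 34.7% higher and 33.5% lower. The difference was least for Apoe, 2.52 on the log2 scale or 5.73-fold (adjusted p = 3.13e-07, limma). For Apoc1 it was 6.26, for Apoc2 7.81, and for the others between 8.97 (Apom) and 11.69 (Apoa4). Leaving out WT(HFD) WAT replicate 1, the values were between 2.40 for Apoe and 12.30 for Apoa4. Liver and WAT arrays were on different slides and were read on different scanners, so that tissue and scan cannot be told apart.

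None of the genes in the lists of lipoprotein metabolism passed in WAT (limma). Of the 16 other apolipoproteins and related proteins tested, 5 had an unadjusted p under 0.05, beside 14.9% of all probes. Apol9b had -1.04 (adjusted p = 0.165, limma), beside its decrease in liver, and Apod, a lipocalin, -0.94 (adjusted p = 0.317, limma). Lpl, the lipase that adipocytes secrete, lay between 6.63 and 7.54 in WT(HFD) WAT and between 7.20 and 8.01 in CD44KO(HFD) WAT (log2 fold change 0.40, adjusted p = 0.41, limma). Of 13 lipid droplet genes 7 had an unadjusted p under 0.05, beside the same 14.9%, with a median of 0.53, and for mesothelial markers it was 7 of 8, with a median of -2.07. No marker of any cell type list passed in WAT (limma), where the mesothelial list had the highest share at an unadjusted p under 0.05.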

How the data were processed

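RNA of 10 liver and 10 WAT samples was hybridised by the Agilent 1-color protocol. The authors deposited each spot's processed signal, a linear intensity made by Feature Extraction (9.5 in the submitters' processing notes), with no scaling between arrays; the series table holds the same intensities. Background marks of that software are also in the deposited files, with mean and local background intensities.

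Signals were put on the log2 scale and the 75th percentile over non-control spots was subtracted. Outlier spots were left out and the spots of a probe averaged. Genes were matched by the symbol in the files or the current symbol of the accession and read by the brightest probe. No probe of the 10 genes was saturated. Groups and replicate numbers come from the titles. Genotypes were compared by limma 3.58.1 in R 4.3.3 (statmod 1.5.0), with Benjamini-Hochberg adjustment over all probes tested and a threshold of 0.05. Apoa4 was also compared with its neighbours by the exact permutation test over 252 relabellings. Correlations used 100000 permutations. The code of the fits was run on simulated data in which noise was independent between probes. Variation that probes share on an array was not part of that run. The number of arrays limits the precision, and since no label says that each array is of another mouse, p-values cover the spread between these samples.

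The 10 genes, the gene and marker lists and the tests were chosen with earlier results of these data known. The text names the 10 genes, up to 4 genes with the largest change past the threshold of each list, Creb3l3, Hnf4a, Ppara, Nr1d1, chief markers and the 5 symbols closest to Apoa4 by each measure. Mttp, Lpl, Apod, Apol9b in WAT, the probes near Apoa4, Apoc4, Tomm40 and the enterocyte markers were named outside that rule, after their values were seen. Alternatives were normexp, quantile and other percentile scaling, other filters, array weights, slide and replicate blocks, all arrays in 1 fit, other probe choices and leaving out each array.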

Additional observations from a re-analysis of the deposited data

Results flagged for a closer look

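Among 44 groups of 5 arrays checked, 3 had an array far from the others, and chance flags about 1 in 20 groups. Apoa2 in CD44KO(HFD) WAT replicate 2 was -0.98, where the next array was 0.48. Apoc2 in CD44KO(HFD) liver replicate 2 was 7.99, where the next was 8.35. Apoc2 in CD44KO(HFD) WAT replicate 3 was 1.51, where the next was 0.87.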

How the results depend on the processing

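The decrease of Apoa4 in liver kept its direction in every fit, between -2.49 and -2.35 over the alternatives to scaling, filter and model, but not its side of the threshold. It had an adjusted p of 0.0563 with no filter on dim probes, 0.0691 with all 20 arrays in 1 fit and 0.0511 with a replicate block (limma), each with a log2 fold change of -2.38 and with 0 of the 10 genes passing. With 1 array left out it lay between -2.86 and -2.05 and the number passing in liver between 0 and 1. Within 1 of the slides it was -1.27, and Apoa4 minus its neighbours -1.44. With 1 array left out Apoa4 minus its neighbours ranged from -3.09 to -2.21 in liver and from -1.89 to -0.83 in WAT, where p fell to 0.016 without WT(HFD) replicate 2 (exact permutation test). In WAT, array weights made 1 gene pass, Apoe (-0.41, adjusted p = 0.0171, limma). Under that setting 2814 of all 27654 probes tested passed too, so that nothing is read from this call. In WAT 0 genes passed with any 1 array left out.

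Of the small differences that did not pass, several turned in sign. In liver, Apoa5 was -0.01 with normexp and -0.02 with quantile normalization. Apob was -0.06 and -0.09 under these, -0.02 with the percentile taken over probes above background on all arrays, -0.23 as the mean of its probes and from -0.03 to 0.09 with 1 array left out. Apoe was 0.01 with outlier spots kept and in the series table, and from -0.08 to 0.05 with 1 array left out. In WAT, Apom was -0.11 with normexp, -0.39 with the hepatocyte markers as covariate and from -0.32 to 0.63 with 1 array left out. Apoa4 was 0.15 with quantile normalization, -2.41 and 1.20 within slides and from -0.90 to 0.14 with 1 array left out. Apoe was 0.04 with slide as a fixed block, and Apoa1 -0.04 with the covariate, which was chosen after seeing the data. The cause of these turns was not tested.

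The background counts moved more. Against 3358 probes in liver (1420 lower, 1938 higher), normexp gave 641 (425 and 216), no filter 1027 (578 and 449), all 20 arrays 723 (538 and 185) and leaving out 1 array from 858 to 4647. The other percentile gave 1643 lower and 1376 higher. In WAT, against 11, there were 35 with normexp, 6 with the other percentile, 3 with no filter, 1817 with all 20 arrays, 4 with slide as a fixed block, 2814 with array weights, 4 with the covariate and from 3 to 19 with 1 array left out. For the interaction, against 334, no filter gave 77 and leaving out 1 array from 84 to 582. The pathway lists gave 6 genes in liver with normexp and from 5 to 31 with 1 array left out. The scaling moved the median of all probes to 0.02 to 0.14 in liver and -0.19 to 0.10 in WAT.

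The labels do not say that a replicate number marks a shared origin. The deviations of samples with the same number had r of 0.25, 0.18, -0.04, 0.42 and -0.03 in liver, over 0.1 for 3 of 5, and from -0.21 to 0.09 in WAT, and only number 4 in liver matched best with its own, so that the numbers were not taken to pair the samples. The replicate block gave 1329 probes in liver (682 lower, 647 higher) and 3 in WAT. The choice of an unsaturated probe gave the same probes, since none was saturated.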
